A study of Mus musculus with 3 samples.

Results

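The HOX genes of clusters A to D and the caudal genes Cdx1, Cdx2 and Cdx4 were followed through a comparison of 2 kinds of mouse embryoid body. The genes were chosen by name: 38 HOX and 3 CDX genes, each matched to its array probes through the RefSeq accession of the probe. All 41 were found, on 45 probes, among 21153 named genes and 28025 named probes. Embryoid bodies are aggregates in which embryonic stem cells differentiate, here towards heart muscle until day 8. The test cultures were Hopx-/- and received XAV939 at 12.5 µM, and the reference cultures were Hopx+/-, with no inhibitor named in their label. XAV939 inhibits tankyrase and lowers β-catenin, and Hopx is an atypical homeobox gene whose short product lacks DNA binding. Both genotypes came from stem cell lines derived from blastocysts on STO feeder cells and kept on embryonic fibroblasts, and both were plated in a serum-free medium with VEGF, bFGF, FGF10 and ascorbic acid. How many lines of each genotype were used is not stated in the sources used here. Because genotype and inhibitor differ together, their parts cannot be told apart. RNA of the test and reference cultures was hybridised together on each of 3 two-colour Agilent arrays (replicates 1 to 3), and the series' design text calls the replicates of each culture biological.

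HOX genes encode homeodomain transcription factors that give cells their position along the head to tail axis. Genes of one cluster lie in a row, and genes with the same paralog number in different clusters descend from one ancestral gene. Low paralog numbers are active early and as far forward as the hindbrain, and high numbers later and towards the tail, the limb ends and the genital region. CDX factors are homeodomain proteins of the posterior embryo that activate HOX genes, and Wnt, FGF and retinoic acid signals act on both families.

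Ratios are given as log2 of null with inhibitor over heterozygous, so that 1 is a doubling, with the SD over arrays (n = 3 throughout). That direction is the likely one and is not settled. By the labels, Cy5 held the null RNA on all 3 arrays, yet across probes the labelled ratio of replicate 3 ran against replicate 1 (r = -0.86) and replicate 2 (r = -0.89), while replicates 1 and 2 ran together (r = 0.95). Replicate 3 was turned, as it is in the authors' values, and Hopx itself was then lower on each array (-2.71 ± 0.05). Should the true direction be the reverse, all signs below turn, and with replicate 3 left as labelled no HOX or CDX gene passed the test by limma (0 also at an unadjusted p below 0.05). The share of probes well above background was 56.6% to 68.0% over the 6 channels.

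Of 9 tested genes of the posterior paralog groups 9, 10 and 11, 7 had higher RNA levels in the null cultures with inhibitor. Hoxa9 and Hoxc9 did not pass the test, and 31.5% of all genes tested rose. In HOXB the rise was that of Hoxb9 and in HOXC that of Hoxc10. Hoxa11, Hoxc10 and Hoxd10 entered the test through their brighter null signal. Hoxb2, Hoxb4 and the caudal gene Cdx2 had lower levels, and the genes of groups 4 to 8 moved in both directions. Of the 41 genes, 27 were tested, which required, on each of the 3 arrays, a probe well above background in 1 channel or both. Of these 27, 13 rose and 7 fell at an adjusted p below 0.05 (limma, Benjamini-Hochberg over 14705 genes), and 7 did not pass. The 20 calls are 74.1% of the tested members. Over all genes tested 64.5% passed, 31.5% higher and 33.0% lower, so that passing in itself does not set the HOX and CDX genes apart. Each of the 20 had one sign on all 3 arrays, as did 9402 of all 9484 genes that passed. This does not set the members apart, and with replicate 3 turned the agreement is partly built in. With opposite overall direction the counts would be 7 higher and 13 lower. The calls depend on how local backgrounds that the scanner software marked as outliers are handled: with these kept, 4 members passed (Hoxb9 and Hoxd11 higher, Hoxb2 and Cdx2 lower), and 12 passed when each array was centred on its median without loess.

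**Figure D1:**
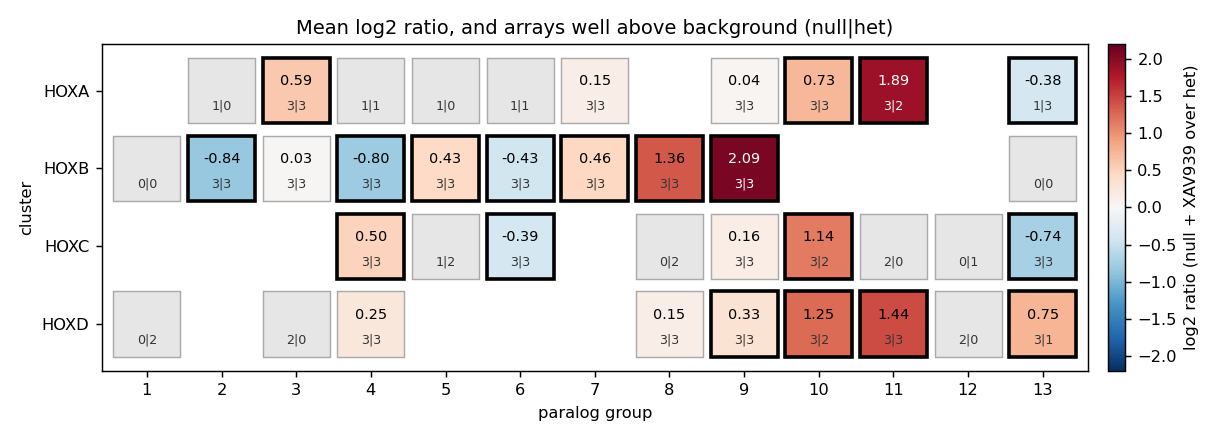
Grid of the 38 HOX genes by cluster (rows) and paralog group (columns), coloured by mean log2 ratio over 3 arrays; grey boxes were not tested, thick borders mark adjusted p below 0.05, and the small pair gives the arrays well above background in null and in heterozygous cultures. The strongest red lies in groups 9 to 11, up to 2.09 for Hoxb9, and blue appears at Hoxb2, Hoxb4, Hoxb6, Hoxc6, Hoxa13 and Hoxc13.

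The signals of these genes were weak. Mean normalised log2 signals of the tested HOX genes ran from 6.13 to 9.48, and none of the 45 probes was saturated. Of the 27 tested genes, 22 were well above background in both channels on all 3 arrays, and 9 of these rose and 6 fell. The other 5 passed the filter with gaps in one group. The heterozygous signal passed the background mark on 2 of 3 arrays for Hoxa11, Hoxc10 and Hoxd10 and on 1 for Hoxd13, and the null signal on 1 of 3 for Hoxa13. A gene that enters the test through its bright group is bound to differ, so the count over tested members is no evidence for a shared direction. An offset of 50 was added before taking logs, which shrinks the ratios of weak spots. The Feature Extraction log ratio has no such offset and gave larger values for weak members, for example 3.81 for Hoxa11 and 3.01 for Hoxd10. RNA came from whole cultures, so fewer cells of a type and less RNA per cell cannot be told apart.

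**Figure D2:**
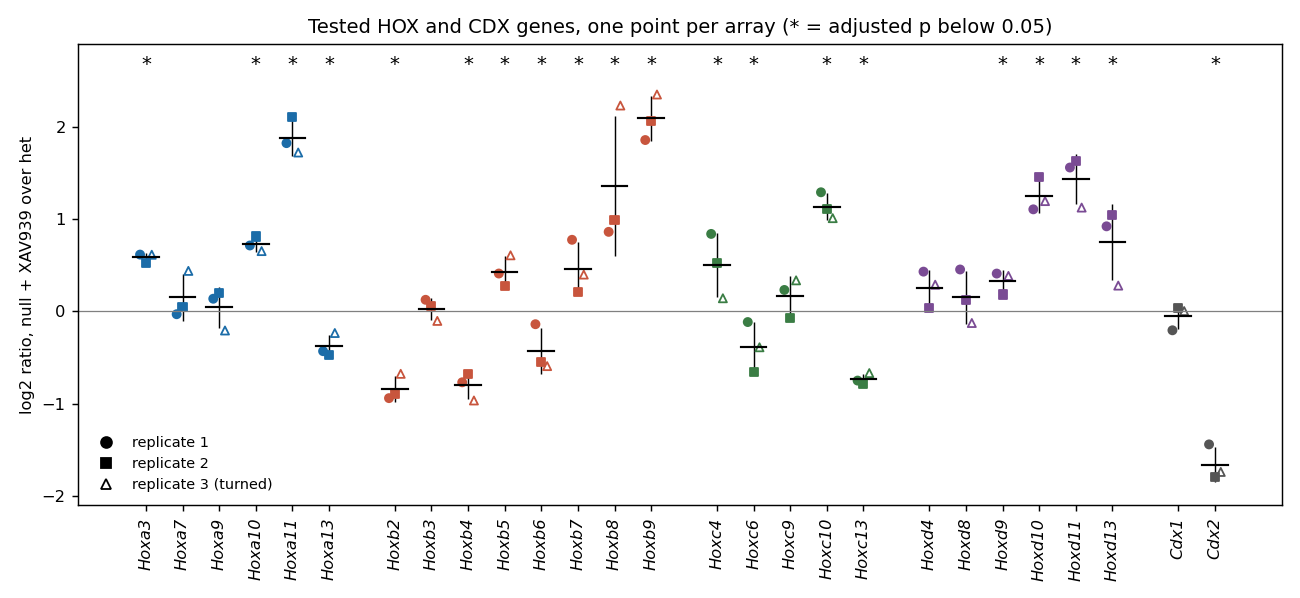
Log2 ratio of each of the 27 tested genes on each array (points, shaped by replicate), with the mean (horizontal line) and SD (vertical line); stars mark adjusted p below 0.05. Hoxb9 and Hoxa11 sit highest and Cdx2 lowest, and replicate 3 of Hoxb8 lies at 2.23 against 0.86 and 0.99.

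Promoter sequences are printed for Hoxa11 and Hoxd11, both of which rose, and for Hoxb4 and Cdx2, which fell, so that the regions can be compared directly. Each is the stretch of 250 bases before the transcription start in the RefSeq promoter table (build GRCm38.p6), 5′ to 3′ on the gene's strand, with matches to the CDX-type words TTTATG or TTTATT on either strand in capitals. Hoxa11 is at chr6:52245811-52246060 (minus strand), Hoxd11 at chr2:74679308-74679557 (plus), Hoxb4 at chr11:96318017-96318266 (plus) and Cdx2 at chr5:147307250-147307499 (minus).
Hoxa11: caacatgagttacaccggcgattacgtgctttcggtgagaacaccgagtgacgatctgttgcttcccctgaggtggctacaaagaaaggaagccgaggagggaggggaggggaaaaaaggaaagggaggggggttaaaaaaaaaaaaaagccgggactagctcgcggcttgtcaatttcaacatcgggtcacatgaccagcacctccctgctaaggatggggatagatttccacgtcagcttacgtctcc
Hoxd11: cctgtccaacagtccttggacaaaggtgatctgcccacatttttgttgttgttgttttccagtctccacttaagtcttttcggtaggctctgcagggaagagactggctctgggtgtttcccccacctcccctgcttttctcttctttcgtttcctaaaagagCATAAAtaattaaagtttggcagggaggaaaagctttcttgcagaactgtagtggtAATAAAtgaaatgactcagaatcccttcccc
Hoxb4: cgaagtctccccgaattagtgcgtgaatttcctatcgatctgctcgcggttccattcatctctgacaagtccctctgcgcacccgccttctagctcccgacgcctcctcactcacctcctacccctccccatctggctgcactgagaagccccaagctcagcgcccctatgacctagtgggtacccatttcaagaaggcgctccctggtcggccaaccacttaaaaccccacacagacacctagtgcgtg
Cdx2: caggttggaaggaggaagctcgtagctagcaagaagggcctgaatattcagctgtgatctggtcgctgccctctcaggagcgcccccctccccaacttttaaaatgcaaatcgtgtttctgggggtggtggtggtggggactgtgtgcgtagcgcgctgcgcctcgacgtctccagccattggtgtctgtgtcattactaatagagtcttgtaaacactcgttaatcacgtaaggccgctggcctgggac
This Hoxd11 window holds 2 such words, 87 and 31 bases before the start. The table lists another Hoxd11 start, whose window holds none. The windows of Hoxa11, Hoxb4 and Cdx2 hold none, which says nothing about CDX binding elsewhere. The table held 26 starts of 24 of the 41 genes. A CDX-type word stood in 7 of these 26 (26.9%) and in 25.5% of all 32851 promoters of the table. The TCF/LEF-type words CTTTGA or CTTTGT stood in 30.8% of the members' promoters and 27.6% of all, and the HOX-PBX-type word TGATNNAT in 4 of 26 (15.4%) against 7.7%. These words are short, the first and second sets are counted on both strands, as is the third, and matches of different sets may overlap.

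Hoxb9, a gene of the trunk and the thoracic skeleton, had the highest ratio of the tested members with the offset of 50. Its normalised log2 signal was 9.20, 9.24 and 9.87 in the null cultures on replicates 1, 2 and 3, and 7.34, 7.17 and 7.52 in the heterozygous ones. The groups did not overlap, and replicate 3 was the highest in both. The ratio was 2.09 ± 0.25, or 4.27-fold (adjusted p = 1.46e-06), and it passed under each alternative except the one with replicate 3 as labelled. With the Feature Extraction log ratio Hoxb9 lay at 2.76, below Hoxa11 and Hoxd10. The other group 9 genes moved less. Hoxd9 rose by a small amount (0.33 ± 0.12, adjusted p = 0.0205) and lost its call without replicate 1 (0.28, adjusted p = 0.147) or without replicate 2 (0.40, adjusted p = 0.059). Hoxa9 lay at 0.04 ± 0.22 (adjusted p = 0.751) with replicate 3 at -0.21, and its other probe, detected on 2 of 3 arrays in the null and on 0 in the heterozygous cultures, lay at 0.29 ± 0.09. Hoxc9 lay at 0.16 ± 0.21 (adjusted p = 0.233), with replicate 2 at -0.08.

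All 3 members of group 10, which pattern the lumbar skeleton and the upper limb segments, rose. Hoxd10 had signals of 7.66, 7.76 and 7.43 in the null cultures against 6.55, 6.31 and 6.23. Its ratio was 1.25 ± 0.18, or 2.38-fold (adjusted p = 1.57e-05). The heterozygous signals lay close to background, the third one below the mark. Hoxc10 had null signals of 7.98, 7.50 and 7.36 against 6.68, 6.40 and 6.35, a ratio of 1.14 ± 0.14, or 2.2-fold (adjusted p = 2.12e-05). Hoxa10, the one member of the group above background in both channels on every array, had null signals of 7.26, 7.17 and 7.12 against 6.54, 6.36 and 6.46. It rose by 0.73 ± 0.08, or 1.66-fold (adjusted p = 0.000224), the smallest rise of the 3.

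Of group 11, which acts in the sacral region, the kidney and the forearm, Hoxa11 and Hoxd11 rose. Hoxa11 is printed on 10 spots per array, which gives a measure of technical error. Its spot ratios averaged 1.82, 2.11 and 1.72 on replicates 1, 2 and 3, with SDs over the 10 spots of 0.17, 0.18 and 0.13. The lowest single spot on any array was 1.54, so no spot came near 0. The null signals were 8.42, 8.46 and 7.96 and the heterozygous ones 6.60, 6.35 and 6.23, and the ratio was 1.89 ± 0.20, or 3.7-fold (adjusted p = 1.83e-06). Hoxd11 had null signals of 8.31, 8.31 and 7.84 against 6.75, 6.68 and 6.71, all well above background. It rose by 1.44 ± 0.27, or 2.71-fold (adjusted p = 1.43e-05). Its dimmer second probe rose too, by 0.54 ± 0.04 (adjusted p = 0.00102 in a fit of limma over 19267 probes), so the probes agree in sign and differ in size. Hoxc11 was not tested: it was detected on 2 of 3 arrays in the null and on 0 in the heterozygous cultures, an estimated 1.25-fold higher. Here and below, the fold of an untested gene is the brighter group's mean over the detection limit or the dimmer signal, whichever was higher. Such folds are point estimates from signals near background and not lower bounds.

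In groups 9 to 11, 7 of 9 tested genes rose, none fell and 2 did not pass, where 31.5% of all genes tested rose. Of the 7, Hoxa11, Hoxc10 and Hoxd10 entered the test through the brighter null signal. Among the 6 genes above background in both channels on all 3 arrays, 4 rose, 0 fell and 2 did not pass, with a median ratio of 0.53. In group 13 the signs were mixed. Of that group, which shapes the tail end and the digits, Hoxc13 fell by 0.74 on the log2 scale (-0.74 ± 0.06, adjusted p = 0.000196). Its null signals were 6.47, 6.37 and 6.47 and its heterozygous ones 7.22, 7.15 and 7.14, with no overlap and the tightest arrays of any lower member. Hoxa13 also passed as lower (-0.38 ± 0.13, adjusted p = 0.0104) from signals near background, and lost its call without replicate 1 (-0.35, adjusted p = 0.0744) or without replicate 2 (-0.33, adjusted p = 0.114). Its second probe was above background on no array. Hoxd13 rose (0.75 ± 0.41, adjusted p = 0.00207), with replicates at 0.92, 1.05 and 0.28. Of group 12, neither Hoxc12 nor Hoxd12 was tested, and Hoxd12, detected on 2 of 3 null and 0 of 3 heterozygous channels, was an estimated 1.24-fold higher. Over groups 9 to 13, 8 of 12 tested genes rose and 2 fell, with a median of 0.74. Among the 7 of them above background in both channels throughout, 4 rose and the median was 0.33. With the Feature Extraction log ratio the median of the 12 was 2.31, and with marked local backgrounds kept 0.25.

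**Figure D3:**
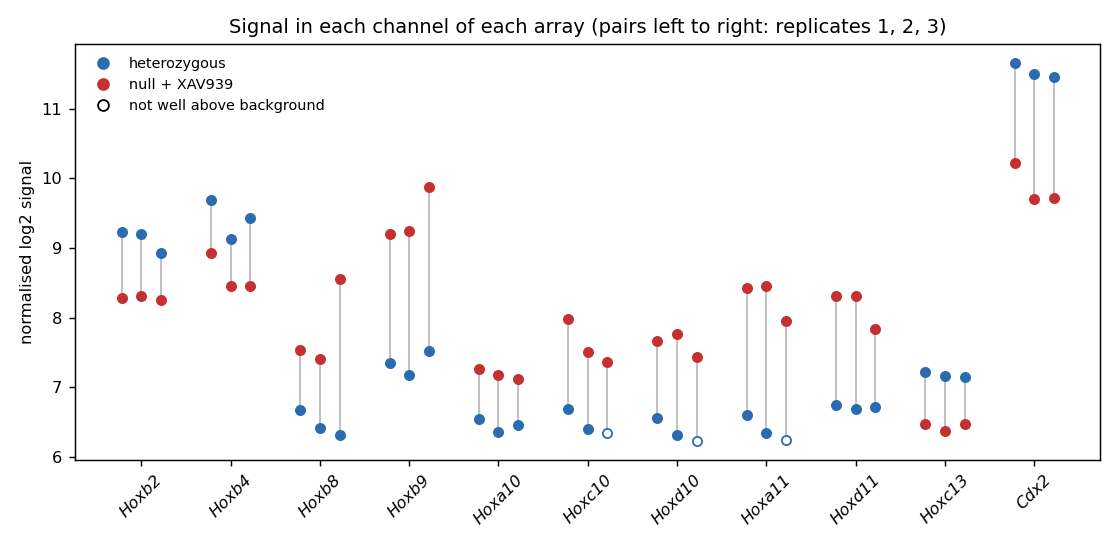
Normalised log2 signal of 11 genes in the heterozygous (blue) and null with inhibitor (red) channel of each array, joined per array; open circles were not well above background. Red lies above blue on every array for Hoxb8, Hoxb9 and the group 10 and 11 genes, and below it for Hoxb2, Hoxb4, Hoxc13 and Cdx2.

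Groups 4 to 8, the genes of the neck and trunk, moved in both directions. Of 15 genes 10 were tested, 4 rose, 3 fell and 3 did not pass, with a median of 0.20. The lower ones included Hoxb4, which is active in the neck region and in blood stem cells. Its null signals were 8.92, 8.46 and 8.46 and its heterozygous ones 9.69, 9.14 and 9.43. The ratio was -0.80 ± 0.15, or 1.74-fold lower (adjusted p = 0.000175). Its neighbours in paralog group 4 did not follow: Hoxc4 rose (0.50 ± 0.35, adjusted p = 0.0107), though not without replicate 1 (0.33, adjusted p = 0.102), and Hoxd4 lay at 0.25 ± 0.20 (adjusted p = 0.0767).

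The group 6 genes Hoxb6 and Hoxc6 both passed as lower, at -0.43 ± 0.25 (adjusted p = 0.0119) and -0.39 ± 0.27 (adjusted p = 0.0211). Their replicates were wide apart, -0.14, -0.55 and -0.59 for Hoxb6 and -0.12, -0.66 and -0.39 for Hoxc6. Without replicate 2 neither passed (-0.37, adjusted p = 0.101, and -0.25, adjusted p = 0.234). Hoxb5 (0.43 ± 0.17, adjusted p = 0.00684) and Hoxb7 (0.46 ± 0.29, adjusted p = 0.0105) rose. Each kept its call under 9 of the 12 alternatives other than replicate 3 as labelled. The ratio of Hoxb5 went down to 0.12 among these, and Hoxb7 lost its call without replicate 1 (0.30, adjusted p = 0.12). Hoxb8, a gene of the lower trunk and of myeloid progenitors, rose on each array but unevenly. Its null signals were 7.53, 7.40 and 8.55 and its heterozygous ones 6.67, 6.41 and 6.32, a ratio of 1.36 ± 0.76 (adjusted p = 0.00082). Replicate 3 stands apart in the null channel, and without it the ratio was 0.93. Hoxa7 (0.15 ± 0.25, adjusted p = 0.293) and Hoxd8 (0.15 ± 0.29, adjusted p = 0.316) did not pass, and Hoxd8 passed without replicate 3 (0.29, adjusted p = 0.028).

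Of the anterior groups 1 to 3, which pattern the hindbrain and pharyngeal arches, 3 of 7 genes were tested, and they gave one rise, one fall and one gene near 0. Hoxb2 fell, with null signals of 8.29, 8.31 and 8.25 and heterozygous ones of 9.23, 9.20 and 8.93. Its ratio was -0.84 ± 0.14, or 1.79-fold lower (adjusted p = 0.00013), and the null arrays were almost level. Hoxa3, of the third arch and the thymus, rose by 0.59 ± 0.05, or 1.5-fold (adjusted p = 0.000744), from signals of 6.89, 6.91 and 6.79 to 7.51, 7.43 and 7.41. Hoxb3 lay at 0.03 ± 0.12 (adjusted p = 0.827), and its second probe at -0.08 ± 0.09. Hoxb1, the early hindbrain gene, is printed on 10 spots and was above background on no array in either group. Its spot means were 0.06, 0.11 and -0.04, with SDs of 0.10, 0.12 and 0.12. That is the scatter of the spots of this probe with no signal present, after the offset, which shrinks the ratios of weak spots.

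The 14 untested genes had mean ratios from -0.40 to 0.38. Hoxb1, Hoxb13 and Cdx4 were above background on no array. Hoxa2, Hoxa5, Hoxc11, Hoxd3 and Hoxd12 were above background on 1 or 2 arrays in the null cultures and on none in the heterozygous ones. Their estimated folds, from signals near background, were 1.08 to 1.25 higher. Hoxd1, a retinoic acid responsive gene, showed the opposite pattern, detected on 2 of 3 arrays in the heterozygous and on 0 in the null cultures, an estimated 1.18-fold lower. Hoxc8 and Hoxc12 were above background in the heterozygous cultures alone, on 2 and 1 arrays, Hoxc5 on 2 there and 1 in the null cultures, and Hoxa4 and Hoxa6 on 1 array in each group.

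By cluster, HOXB had the most tested genes (8 of 10), with 4 higher and 3 lower and a median ratio of 0.23. The sign changed along it: Hoxb2, Hoxb4 and Hoxb6 lower, Hoxb5, Hoxb7, Hoxb8 and Hoxb9 higher. HOXA had 6 of 10 tested, 3 higher and 1 lower, with a median of 0.37. HOXC had 5 of 9 tested, 2 higher and 2 lower, with a median of 0.16, and -0.11 over the 4 above background in both channels. HOXD had 6 of 9 tested, 4 higher and none lower, with a median of 0.54, and 0.29 over the 4 above background in both channels. Hoxa11, Hoxc10, Hoxd10 and Hoxd13 entered the test through their brighter null signal, and Hoxa13 through its brighter heterozygous one. The counts stand beside 31.5% of all genes tested that rose and 33.0% that fell. The cluster medians rest on 4 to 8 genes and were not compared by a test.

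The caudal genes behaved unlike each other. Cdx2, which specifies trophectoderm and later the posterior body and intestine, had the lowest ratio of the tested members. Its null signals were 10.22, 9.71 and 9.72 and its heterozygous ones 11.66, 11.51 and 11.46, with no overlap. The ratio was -1.66 ± 0.19, or 3.16-fold lower (adjusted p = 3.35e-06). Of the 7 lower members it was the one with a fall of 1 or more on the log2 scale. Of the 6 higher members with a rise of that size, Hoxa11, Hoxc10 and Hoxd10 entered the test through their brighter null signal. These counts are therefore no evidence for a shared direction. Cdx2 passed under each alternative except with replicate 3 as labelled. Cdx1, a direct target of Wnt and retinoic acid, lay at -0.05 ± 0.13 (adjusted p = 0.675) at signals from 6.71 to 6.92. Cdx4, which acts with Cdx1 and Cdx2 in blood formation, was above background on no array.

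Of the HOX cofactors of the PBX, MEIS and PKNOX families, which bind DNA together with HOX proteins, 8 were examined and tested, 2 rose and 3 fell. That is near the 64.5% of all genes tested that passed. Meis2 fell by 1.13 on the log2 scale (-1.13 ± 0.27, adjusted p = 5.65e-05), the largest change of the list. Pknox2 fell (-0.70 ± 0.46) and Pbx3 rose (0.60 ± 0.12). Pbx2 fell too (-0.50 ± 0.18, adjusted p = 0.00318), though not without replicate 2 (-0.41, adjusted p = 0.0558). With marked local backgrounds kept 3 of the 8 passed, and with median centring 2. Pbx4 passed (0.33 ± 0.18, adjusted p = 0.0257) but not without replicate 2 (0.26, adjusted p = 0.219), and turned to -0.02 in the authors' values. Of a list of 7 ParaHox and other homeobox genes, 6 were found and 2 tested. They are called linked homeobox genes here, whether or not they lie beside a HOX cluster. Evx1, which neighbours the posterior end of HOXA, fell (-0.70 ± 0.18, adjusted p = 0.000471), and Gbx2, a gene of the anterior hindbrain, rose (0.71 ± 0.21, adjusted p = 0.000569). Neither passed with marked local backgrounds kept (adjusted p = 0.0842 for Evx1 and 0.173 for Gbx2).

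Genes of the posterior growth zone, from which the trunk and tail are laid down, split evenly: 6 of 14 tested genes rose and 6 fell, with a median of 0.11. Among all genes tested 31.5% rose and 33.0% fell. Lower were the ligand gene Wnt5a (-1.17 ± 0.10), the retinoic acid degrading enzyme Cyp26a1 (-1.05 ± 0.11) and the paraxial mesoderm factor Tbx6 (-0.97 ± 0.03). Higher were Fgf4 (2.31 ± 0.44), which is also active in the epiblast, the zinc finger gene Sp8 (1.48 ± 0.11) and the Notch modifier Lfng (0.94 ± 0.06). The dimmer second probe of Sp8 did not show its rise (0.13 ± 0.16, with replicate 1 at -0.05). That of Tbx6 showed a smaller fall (-0.22 ± 0.10). With marked local backgrounds kept, 5 of these 14 genes passed. Tbx6, Sp8 and Lfng did not (adjusted p = 0.079, 0.0507 and 0.102).

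Of the retinoid and chromatin regulators of HOX genes, 14 of 26 tested rose and 4 fell, with a median of 0.34, where 31.5% of all genes tested rose and 33.0% fell. The list was not compared with other genes by a test. The retinoic acid receptor gene Rarb, itself a target of retinoic acid, fell by 2.09 on the log2 scale (-2.09 ± 0.18, adjusted p = 9.25e-07), and the receptor gene Rara fell too (-0.90 ± 0.13). The third receptor gene, Rarg, rose (0.45 ± 0.11, adjusted p = 0.00415), though not without replicate 2 (0.40, adjusted p = 0.0593). Aldh1a2, the enzyme that makes retinoic acid in the early embryo, rose (1.66 ± 0.56, adjusted p = 6.05e-05), with replicate 3 at 1.02 against 2.04 and 1.92. Of 9 Polycomb genes in the list, which hold HOX clusters silent, 5 rose, 1 fell and 3 did not pass. Phc1 rose most (2.52 ± 0.35, adjusted p = 1.15e-06), and Cbx2 (1.06 ± 0.16), Ezh2 (0.90 ± 0.23), Jarid2 (0.58 ± 0.01) and Eed (0.31 ± 0.10) rose too, the last of these not without replicate 1 (0.31, adjusted p = 0.118) or replicate 2 (0.26, adjusted p = 0.217). Rnf2 fell (-0.64 ± 0.27), though not with median centring (-0.38, adjusted p = 0.304). Rarg and these Polycomb genes other than Phc1 and Rnf2 were named after their values were seen. Ctcf, whose protein divides the clusters into domains, rose (1.11 ± 0.09).

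Of 17 non-coding transcripts listed for the clusters, 4 were found by name and 2 tested. Hoxa11os, transcribed antisense to Hoxa11, had ratios of 2.10, 1.99 and 1.75, a mean of 1.95 ± 0.18 (adjusted p = 1.36e-06), close to the 1.89 of Hoxa11. Whether the probes of this antisense pair could share signal was not tested, since the files hold no probe sequences. Haglr, in HOXD, lay at -0.20 ± 0.03 (adjusted p = 0.103). Genes of anterior neural and head identity, a territory without HOX expression, had 5 of 9 tested members higher and 1 lower. Over all genes tested 64.5% passed, 31.5% higher and 33.0% lower, and the list was not compared with them by a test. Otx2 rose 6.88-fold (2.78 ± 0.19) and Hesx1 by 2.38 ± 0.45, and both are active in the epiblast too. Fgf15 rose (0.87 ± 0.12) and Dmbx1 fell (-0.56 ± 0.02), the latter with its null signal past the background mark on 1 of 3 arrays. With marked local backgrounds kept, Otx2 and Hesx1 passed and the other two did not.

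**Figure D4:**
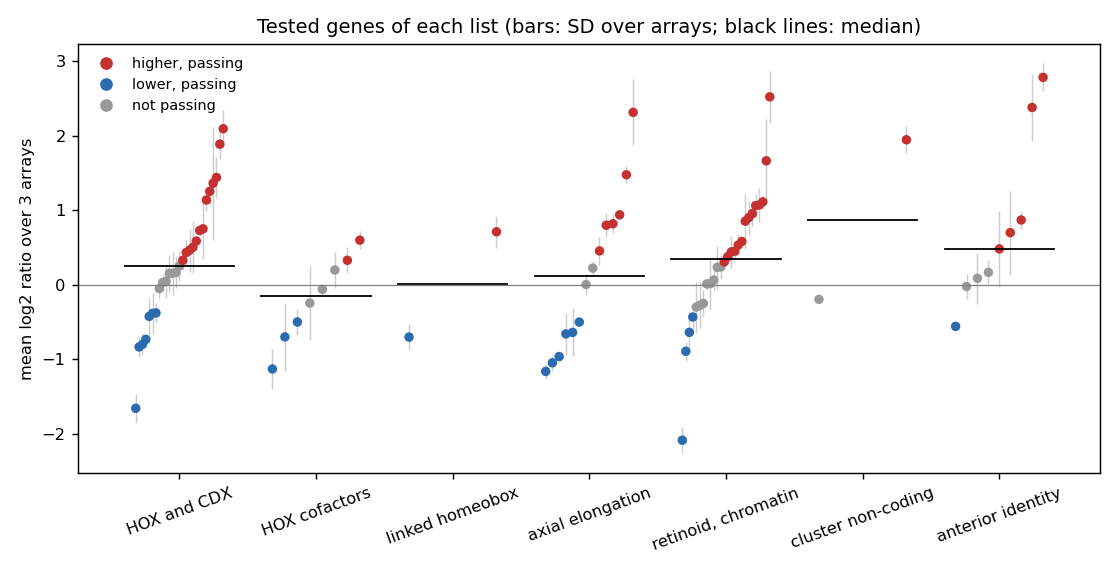
Mean log2 ratio over 3 arrays of every tested gene in the HOX and CDX set and 6 accompanying lists; red and blue points passed as higher or lower, grey ones did not, bars are the SD over arrays and black lines the median. Medians run from -0.16 for the cofactors to 0.87 for the cluster non-coding transcripts, of which 2 were tested.

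Markers of the cell types these cultures could hold moved at the same time. The counts below stand beside 31.5% of all genes tested that rose and 33.0% that fell. Cardiomyocyte markers were above background in both groups and lower for 12 of 12, and endoderm markers were lower for 12 of 12 tested, their summed signal ranging from 9313 to 15213 in the null and from 165497 to 180525 in the heterozygous cultures. Neural markers were higher for 8 of 11 tested and lower for none, with summed signals of 22365 to 24418 against 3339 to 4170. Epiblast and stem cell markers were higher for 9 of 12 and lower for 2 (122778 to 148815 against 42663 to 50230). Blood markers were higher for 7 of 11 tested and lower for 1 (70642 to 96946 against 45129 to 62846). Fibroblast or feeder markers were higher for 2 and lower for 6 of 12 (20460 to 31282 against 37919 to 53482). Endothelial markers were higher for 6 and lower for 3 of 11 (12228 to 13886 against 18086 to 19206). Trunk mesoderm markers divided 7 to 7 of 14 (7289 to 10455 against 14163 to 16115). The part of these cell types in the HOX and CDX ratios was not tested.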

How the data were processed

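Each sample is a two-colour Agilent array with null and heterozygous RNA. The authors extracted spot and background signals as median pixel intensity with Agilent Feature Extraction, given as version 11.5.1.1 in the deposited file headers, while the submitters' processing notes name 8.5.1.1. Per the file headers, the deposited log ratio is log10 of dye-normalized Cy5 over Cy3, and further columns hold other marks, 0 or 1, for spots above background, saturated or outlying. The authors' values are log2 ratios judging from their slopes on the scanner ratios (0.69, 0.80 and -0.80), and their normalization and centring are unknown (column medians 0.09, -0.08 and 0.05).

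Local backgrounds marked as outliers were replaced by the channel's median. Background correction by normexp with an offset of 50, then loess, used limma 3.58.1 (R 4.3.3), and spots of a probe were averaged. Signals are after Aquantile scaling between arrays. A probe counted as above background where at least 0.5 of its spots were marked so. Each gene took its brightest tested probe. The moderated test of limma compared the mean ratio with 0, with Benjamini-Hochberg adjustment. Its p-values measure the spread between 3 arrays, whose number limits the precision. On simulated ratios of 14705 genes, the test recovered 61.7% of genes changed by 1 on the log2 scale and 95.2% of those changed by 2. Recovery in the measured ratios, where 64.5% of genes passed, was not tested. Of 39429 probes, 28025 had 1 symbol and 11404 none. Members, lists and the turning of replicate 3 were chosen with earlier results of these data known. All 41 members are accounted for, and of each accompanying list other than the cell type markers the 3 largest passing rises and falls are named. Alternatives varied the background, normalization, filter, probe rule, authors' values, slide, direction of replicate 3 and each replicate left out. Probe sequences were not used here, so cross-hybridisation between paralogs was not examined. One listed cofactor is not reported here.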

Additional observations from a re-analysis of the deposited data

How the results depend on the processing

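The number of arrays and the weak HOX signals set the limits. Of the 20 called members, Hoxb2, Hoxb9, Hoxd11 and Cdx2 passed in one direction under all 12 alternatives other than replicate 3 as labelled. With replicate 3 as labelled 0 genes passed (13 higher and 27 lower at an unadjusted p below 0.05), hence 0 members and 0 in each list. Hoxb8 then turned to -0.13 and Pknox2 to 0.10. The medians were 0.070 for all members, 0.18, -0.0030, -0.060 and 0.35 for HOXA, HOXB, HOXC and HOXD, and -0.0030 and 0.37 for groups 4 to 8 and 9 to 13.

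With marked local backgrounds kept, the count of genes passing, over all genes tested, was 4925 in place of 9484 (2667 genes higher, 2258 genes lower) and 4 members (2 and 2, with 2 higher in groups 9 to 13). Cofactors, linked homeobox, axial and anterior genes passing were 3, 0, 5 and 2. Medians were 0.22, 0.12 and 0.19 for HOXA, HOXB and HOXD and 0.25 for groups 9 to 13. The cause was not tested. With median centring 5053 genes passed (3034 genes higher, 2019 genes lower; 60.0% higher against 48.9%) and 12 members (8 and 4), with 2 cofactors and 3 anterior genes. The median over all genes shifted from -0.01 to 0.10.

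With the Feature Extraction log ratio, medians were 0.70, 0.35 and 1.62 for HOXA, HOXB and HOXD and 2.31 for groups 9 to 13, and 2 non-coding transcripts passed. With the authors' values the members' median was 0.12, that of HOXA, HOXB and HOXD 0.24, 0.10 and 0.33, that of groups 9 to 13 0.51, and 1 linked homeobox gene passed. Pbx4 turned to -0.023. Fewer genes are tested with probes above background in both channels: 4 members of groups 9 to 13 rose, 1 linked homeobox gene passed, and medians were -0.11 for HOXC, 0.29 for HOXD and 0.33 for groups 9 to 13. Without a filter more dim genes enter, and medians were 0.16, 0.036 and 0.33 for HOXA, HOXB and HOXD and 0.35 for groups 9 to 13.

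Leaving out each replicate in turn gave 16 to 21 members passing, 10 to 14 higher and 4 to 7 lower, 3 to 5 cofactors passing, and a HOXB median of 0.14 to 0.26. Replicate 1 lay on one slide and replicates 2 and 3 on another, so the values without replicate 1 are those within a slide. A random slide block could not be fitted with 3 arrays. Slide as a fixed term, chosen after seeing the data, ended the call of Hoxc6 among the members (-0.32, adjusted p = 0.062). No paired analysis was possible because the arrays form a single group of ratios, each of which already pairs its 2 samples.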
